A study of Canis lupus familiaris with 30 samples.

Results

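The change in blood mononuclear cell RNA between week 3 and week 6 of a raw meat diet was measured on 4 arrays of a series of 30. These are the arrays that the labels give to meat-fed dogs with the week 6 sample and the week 3 sample together on the same array. Adult dogs ate only a carbohydrate-containing kibble (8 dogs) or only a raw red meat diet high in protein and fat (7 dogs), for 9 weeks in all, and blood was taken at the start and every 3 weeks. The meat group is compared here with itself at 2 times, week 3 and week 6, so both samples of each array share the diet. The labels give 6 biological replicates, and they do not say which dog is on which array. How many dogs the 4 arrays hold is not given in the sources used here. The p-values therefore measure the spread between arrays, over all 15 arrays of weeks 3 and 6, which may in part be technical. Arrays may share dogs, so they may not be independent.

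Each array compares 2 RNA samples labelled with different dyes, Cy3 and Cy5, and reports their ratio at each probe. On all 4 meat arrays week 6 carried Cy3 and week 3 carried Cy5, so within them the dye and the week cannot be told apart. The other 11 arrays of weeks 3 and 6 supplied a dye term for each probe. They are 4 arrays of kibble-fed dogs with week 3 in Cy3 and week 6 in Cy5, and 7 arrays that set meat-fed against kibble-fed dogs within week 3 or within week 6, in both dye orders. Values below are log2 of week 6 over week 3 after removal of the dye term, so that 0 is no change and a positive value is a higher level at week 6. The value of a single array is its own dye-corrected ratio. The fitted value rests on all 15 arrays, because the diet arrays also link meat at week 6 to meat at week 3 by way of the kibble samples, and it can differ from the mean of the 4 arrays. A probe or gene is said to have risen or fallen only where the limma test, adjusted by Benjamini-Hochberg over all probes tested, gave a p under 0.05.

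Peripheral blood mononuclear cells are the lymphocytes and monocytes that stay at the interface when blood is spun on a density medium. Platelets are small and are often carried along, while granulocytes and red cells mostly sediment. Monocytes sense complement fragments, microbial products and prostaglandins, cytotoxic lymphocytes secrete chemokines and perforin, and the relative share of these cells in blood varies from day to day.

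Of 29087 probes tested, 1587 could be given a gene name, and these stand for 1008 genes. Probes well above background numbered 25700 to 27469 in the week 6 channel of the 4 meat arrays and 24344 to 28920 in the week 3 channel. Markers of several blood cell types were well above background in every meat sample of weeks 3 and 6, among them the T cell gene CD8A, the monocyte gene CD163, the antigen-presentation gene DLA-DRA and the platelet gene GP1BA. Of 17 T cell markers and 13 B cell markers listed, 2 each had a usable probe. These were CD4 and CD28, and MS4A1 and CD40. Precision is limited by how many arrays there are. Probe levels were ranked to choose the brightest probe of each gene, but levels of different genes were not tested against each other.

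Meat-fed dogs differed between week 6 and week 3 at 326 of 29087 probes (1.12%, limma adjusted p under 0.05), 271 of them higher at week 6 (0.932%) and 55 lower (0.189%). The changes were small. The median size over the called probes was 0.35 on the log2 scale, which is 1.27-fold, with a range from 0.17 to 1.08 (2.12-fold). Over all probes the median value was 0.0073, the median size 0.080 and the median standard error (SE) 0.072. The 4 arrays lay on 1 side of 0 at 324 of the 326 called probes, against 6705 of all probes tested (23.1%). The called probes were chosen by the fit to these same arrays, so their shared sign is no separate support. An unadjusted p under 0.05 was found at 5016 probes (17.2%). With arrays centred on their median in place of the loess step, the median of all probes moved to 0.13 and 8994 probes were called higher against 434 lower, so the share of higher calls was 95.4% there and 83.1% with loess.

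Only 19 of the 326 called probes carry a gene name. By the brightest probe of each gene, 13 of 1008 named genes passed (1.29%), 9 higher (0.893%) and 4 lower (0.397%). The 9 that rose include receptors of myeloid cells, an inflammatory caspase and genes of membrane traffic and methyl metabolism. The 4 that fell include a chemokine and a phosphatase subunit.

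**Figure D1:**
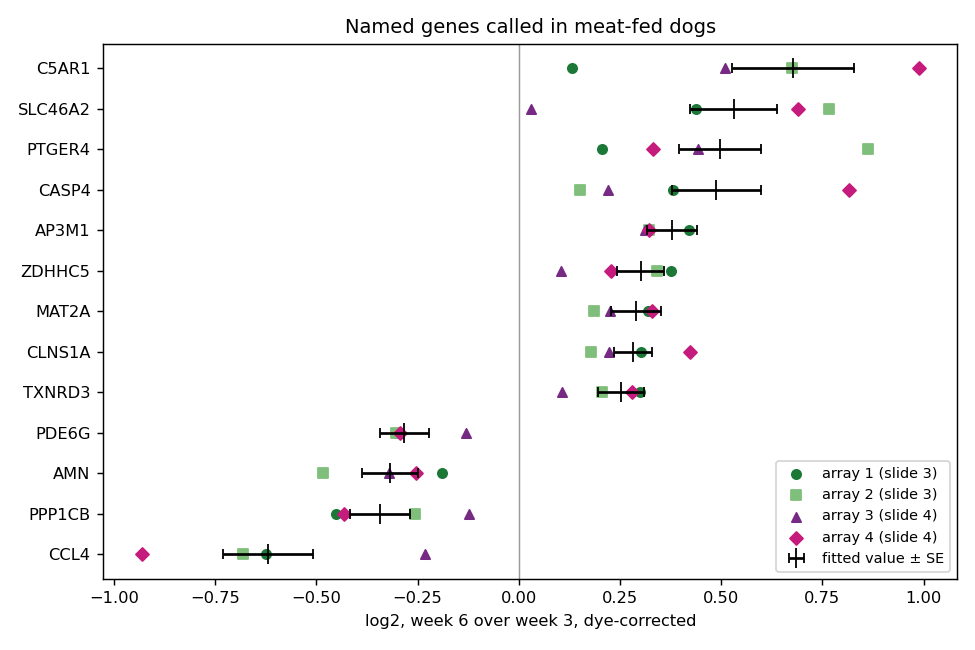
Dye-corrected log2 value, week 6 over week 3, of the 13 named genes that passed the limma test in meat-fed dogs (x axis), with a point for each of the 4 meat arrays and a black mark for the fitted value ± SE. All 4 points lie on the side of the fitted value for every gene shown, and the genes were chosen by the fit to these same arrays. The points of AP3M1 sit between 0.31 and 0.42, while those of C5AR1 spread from 0.13 to 0.99.

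C5AR1, the receptor for the complement fragment C5a on monocytes and granulocytes, had values of 0.13, 0.67, 0.51 and 0.99 on meat arrays 1 to 4. All 4 were above 0, with array 1 far below the rest. The fitted rise was 0.68 ± 0.15 (SE), 1.60-fold, with a limma adjusted p of 0.0485. PTGER4, the EP4 receptor through which prostaglandin E2 acts on leukocytes, had values of 0.21, 0.86, 0.44 and 0.33. Array 2 was highest, and the fitted rise was 0.50 ± 0.10, 1.41-fold (limma adjusted p = 0.0359). CASP4, an inflammatory caspase, had values of 0.38, 0.15, 0.22 and 0.82. Here array 4 stood highest and the fitted rise was 0.49 ± 0.11, 1.40-fold (limma adjusted p = 0.0499), at the edge of the threshold.

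SLC46A2, a membrane transporter of the folate transporter family, had values of 0.44, 0.77, 0.030 and 0.69. Array 3 was close to 0 and the other arrays were high. The fitted rise was 0.53 ± 0.11, 1.45-fold (limma adjusted p = 0.0359). AP3M1 encodes the mu subunit of the AP-3 adaptor, which sorts cargo towards lysosomes. It was the most even of the 13 called genes over the 4 arrays, with 0.42, 0.32, 0.31 and 0.32, and the fitted rise was 0.38 ± 0.061, 1.30-fold (limma adjusted p = 0.0149). Its other 2 probes gave smaller values that did not pass, with limma adjusted p of 0.268 and 0.0725. ZDHHC5, a palmitoyltransferase of the cell membrane, gave 0.38, 0.34, 0.10 and 0.23. Its fitted rise was 0.30 ± 0.057, 1.23-fold (limma adjusted p = 0.0273), and its array 3 value was the lowest.

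MAT2A, which makes the methyl donor S-adenosylmethionine from methionine, had values of 0.32, 0.19, 0.23 and 0.33. The arrays differed little, and the fitted rise was 0.29 ± 0.062, 1.22-fold (limma adjusted p = 0.0442). A second MAT2A probe also passed (limma adjusted p = 0.0485), and a further probe did not (limma adjusted p = 0.0613). CLNS1A, a subunit of the complex that methylates and assembles spliceosomal proteins, gave 0.30, 0.18, 0.22 and 0.42, with a fitted rise of 0.28 ± 0.048, 1.22-fold (limma adjusted p = 0.0159). TXNRD3, a selenium-containing thioredoxin reductase, gave 0.30, 0.21, 0.11 and 0.28, with a fitted rise of 0.25 ± 0.056, 1.19-fold (limma adjusted p = 0.0485). On these probes neither gene had an array below 0. The second probes of CLNS1A and TXNRD3 did not pass (limma adjusted p of 0.145 and 0.201). That of CLNS1A lay at -0.034 on array 2.

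CCL4, a chemokine released by activated cytotoxic lymphocytes and monocytes, had values of -0.63, -0.68, -0.23 and -0.93. It was below 0 on every meat array, least on array 3 and most on array 4. The fitted value was -0.62 ± 0.11, which is 1.54-fold lower at week 6 (limma adjusted p = 0.0207), the largest fall among the called named genes. PPP1CB, a catalytic subunit of protein phosphatase 1, gave -0.45, -0.26, -0.12 and -0.43, with a fitted value of -0.34 ± 0.074, 1.27-fold lower (limma adjusted p = 0.0442). The second PPP1CB probe had a limma adjusted p of 0.0835. AMN, which encodes amnionless, a partner of cubilin in vitamin B12 uptake by gut and kidney, gave -0.19, -0.48, -0.32 and -0.26, with a fitted value of -0.32 ± 0.069, 1.25-fold lower (limma adjusted p = 0.0442). PDE6G, the inhibitory subunit of the photoreceptor phosphodiesterase, gave -0.30, -0.30, -0.13 and -0.29, with a fitted value of -0.28 ± 0.061, 1.22-fold lower (limma adjusted p = 0.0442). Under median centring all 4 falls lost their call, with CCL4 at -0.30, PPP1CB at -0.14 and AMN at -0.060, and PDE6G turned to 0.019, so its direction depends on the scaling. The 9 rises stayed called there. AMN and PDE6G are best known from other tissues, and each was measured by a single probe. The AMN probe had a mean log2 signal of 17.0, beside 15.8 for the brightest GAPDH probe. Whether the AMN probe reads another transcript was not tested.

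Genes called on the brightest probe had 7 further probes, and all 7 lay in the direction of the brightest, with 1 of them called. Outside the naming rule, 5 genes passed only on a probe that was not their brightest, and they were chosen after their values were seen. The fitted values of the called probes were 0.24 for ADGRE5, 0.37 for MPHOSPH8, 0.30 for ST6GALNAC2, -0.20 for MADCAM1 and -0.41 for MATR3. The probes of MATR3, an RNA-binding protein of the nuclear matrix, disagreed, since 2 of its 4 probes lay at -0.041 and -0.025. The largest changes of all belong to probes without a gene name. TC52416 rose by 0.89 ± 0.10 (limma adjusted p = 0.00474) and DN377307 by 0.93 ± 0.15 (limma adjusted p = 0.0152), while TC56164 lay at -1.08 ± 0.22 (limma adjusted p = 0.0369) and XM_848508 at -1.04 ± 0.23 (limma adjusted p = 0.0442). TC56164 gave 0.13, -0.82, 0.044 and -1.12 on kibble arrays 1 to 4, and XM_848508 gave 0.18, -0.87, 0.042 and -1.06. Their meat array values were also close to each other, and whether both read the same transcript was not tested.

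The named calls were sensitive to single arrays. Without meat array 4, 4 probes were called, none of them with a gene name, and 0 of the 13 named genes stayed called, with limma adjusted p from 0.058 to 0.162 (their signs held). The count of 326 also moved by over 1.5 times without the second of the week 3 arrays with meat in Cy3 (106 probes), kibble array 4 (115), the second of the week 6 arrays with kibble in Cy3 (121), meat array 2 (133), kibble array 1 (154), kibble array 3 (157), the first of the week 3 arrays with meat in Cy3 (211) and meat array 3 (212). In all 15 fits that left out an array, the 326 probes kept their sign, but these fits share most of their arrays with the fit that chose the probes. AP3M1 and CLNS1A stayed called in 14 of the 15 fits, failing only without meat array 4. CCL4 stayed called in 12, failing without meat array 2, meat array 4 or the second week 3 array with meat in Cy3. ZDHHC5 stayed called in 8 fits, SLC46A2 in 6, PTGER4 in 5, C5AR1 and PDE6G in 3, CASP4, MAT2A, TXNRD3 and PPP1CB in 2 and AMN in 1. The other fits each left 2 to 8 of the 13 called. They left 2 without the second week 3 array with meat in Cy3, 3 without kibble array 1, kibble array 4 or meat array 2, and 4 without kibble array 3 or the second week 6 array with kibble in Cy3.

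**Figure D2:**
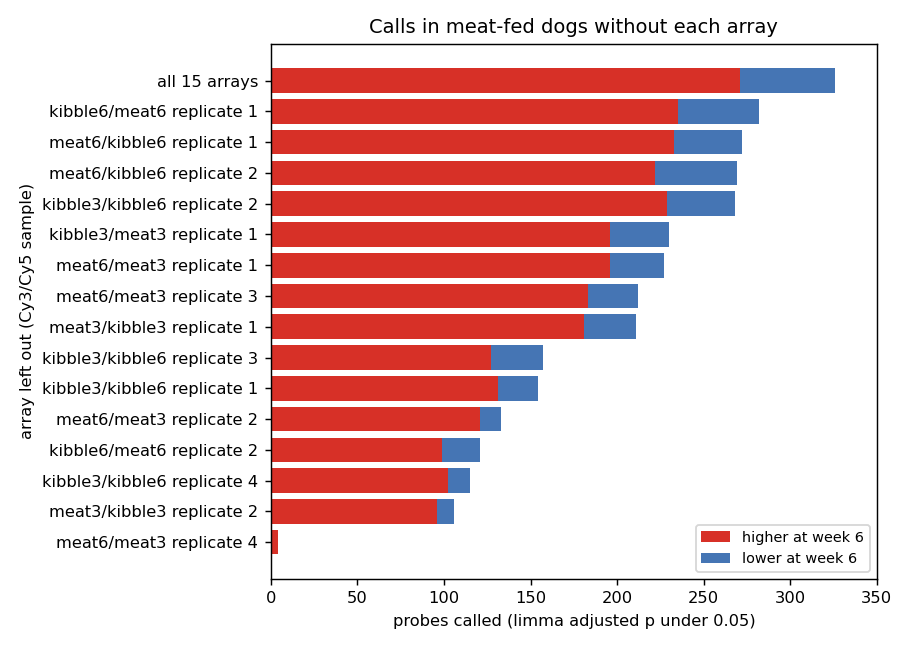
Number of probes called in meat-fed dogs (x axis) with all 15 arrays and without each array in turn (y axis, named by the Cy3 and Cy5 samples), split into higher and lower at week 6. The count is 326 with all arrays, between 106 and 282 without most single arrays, and 4 without the fourth meat array.

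The meat arrays lay on 2 slides, arrays 1 and 2 on slide 3 and arrays 3 and 4 on slide 4, and each slide also held 2 kibble arrays. All 326 called probes had the same sign in the mean over both slides, but they were chosen by the fit to these same arrays. With the time arrays of slide 3 alone beside the diet arrays, limma called 0 probes (3221 at an unadjusted p under 0.05), and with those of slide 4 alone it called 0 (3772). C5AR1 lay at 0.53 with slide 3 and 0.88 with slide 4, CCL4 at -0.69 and -0.55, and AP3M1 at 0.41 and 0.37. A separate dye term for each slide left 38 probes called. The 4 meat arrays fitted alone without a dye term gave 0 called probes and 5255 at an unadjusted p under 0.05 (limma), and the 11 other arrays without them gave 0 and 2176. From those 11 arrays alone C5AR1 lay at 1.20 ± 0.30, CASP4 at 0.99 ± 0.17, AP3M1 at 0.56 ± 0.15, CCL4 at -0.63 ± 0.25 and PTGER4 at 0.68 ± 0.21. None of the 13 named genes turned its sign, but those arrays were also part of the fit that chose the genes. Without slide 7, the diet arrays of week 6, none of the 13 was called, and 6 moved nearer 0 by over 1.5 times. These were C5AR1 (0.32 ± 0.22), CASP4 (0.14 ± 0.16), MAT2A (0.10), TXNRD3 (0.17), SLC46A2 (0.35) and CCL4 (-0.40), while AP3M1 lay at 0.37.

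Cell type markers were examined as lists. In bulk RNA, fewer cells of a type and less RNA per cell cannot be told apart. Platelet genes were the list farthest from 0. All 7 tested had negative fitted values, with a median of -0.67, against 0.0073 over all probes and 483 of 1008 named genes with a negative value (47.9%). None of the 7 passed the adjusted test, and 4 had an unadjusted p under 0.05, against 77 of the named genes (7.64%) in that direction. With median centring 2 of the 7 turned positive.

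SELP, the P-selectin of platelet granules, gave -0.56, -0.61, -2.15 and -0.85 on arrays 1 to 4. Its fitted value was -0.94 ± 0.24 (limma adjusted p = 0.0749). PTGS1, the cyclooxygenase that feeds thromboxane synthesis in platelets, gave -0.42, -0.61, -2.23 and -0.96 (fitted -0.93 ± 0.27, limma adjusted p = 0.103). GP1BA, the platelet receptor for von Willebrand factor, gave -0.28, -0.27, -1.98 and -1.02 (fitted -0.86 ± 0.25, limma adjusted p = 0.108). Array 3 was lowest for each of these genes and arrays 1 and 2 were nearest 0. ITGA2B and ITGB3, the 2 chains of the platelet fibrinogen receptor, had fitted values of -0.67 ± 0.23 and -0.42 ± 0.20, again lowest on array 3, at -1.61 and -1.24. CLU (-0.18) and VWF (-0.15) were closer to 0.

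The median of the platelet list was -0.28, -0.27, -1.61 and -0.85 on meat arrays 1 to 4, and -0.46 in the fit without array 3. Its summed signal ran from 14.2 to 14.9 on the log2 scale in the week 6 samples of the meat arrays and from 14.8 to 15.6 in their week 3 samples, and all 7 members were well above background in every meat sample. On the kibble arrays the list median ran from -0.24 to 0.035. The part of platelet RNA in the other results was not tested. On array 3, where the platelet genes were lowest, AP3M1 lay at 0.31, beside 0.32 on arrays 2 and 4, and 7 of the 13 called genes were closest to 0: CCL4, SLC46A2, PPP1CB, ZDHHC5, TXNRD3, PDE6G and, by a small margin, AP3M1.

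**Figure D3:**
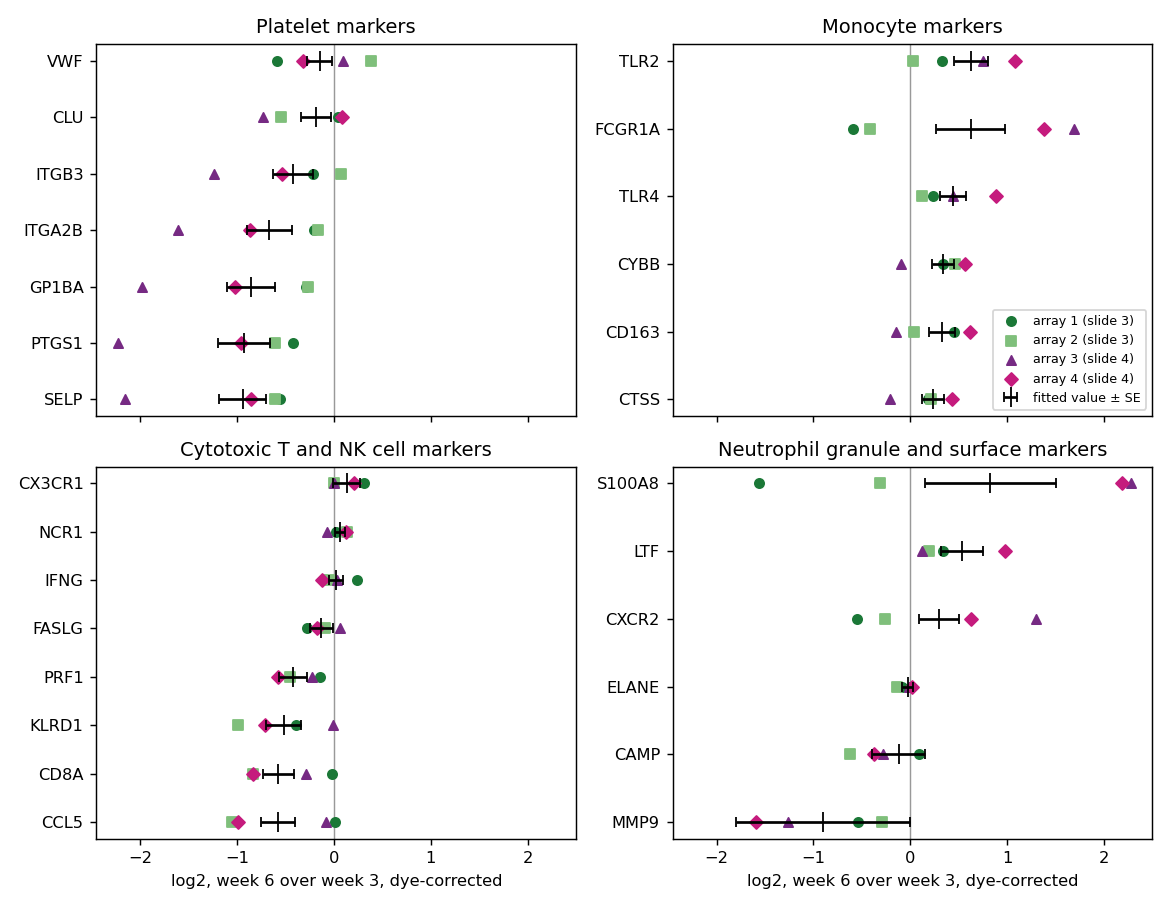
Dye-corrected log2 value, week 6 over week 3, of the tested members of 4 marker lists (x axis) on each of the 4 meat arrays (coloured points), with the fitted value ± SE in black. SELP, PTGS1 and GP1BA lie near -2 on array 3, and S100A8 lies at -1.56 and -0.31 on the arrays of slide 3 and at 2.28 and 2.19 on those of slide 4.

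Monocyte genes lay on the other side of 0. All 6 tested had positive fitted values, with a median of 0.39, against 52.1% positive among the named genes. None passed, and 4 had an unadjusted p under 0.05, against 10.6% of named genes in that direction. TLR2, the receptor for bacterial lipoproteins, gave 0.33, 0.025, 0.76 and 1.08 (fitted 0.62 ± 0.17, limma adjusted p = 0.0984). TLR4, the receptor for lipopolysaccharide, gave 0.23, 0.12, 0.44 and 0.89 (fitted 0.44 ± 0.14, limma adjusted p = 0.121). Both were highest on array 4, as were C5AR1 and CASP4. CYBB, the catalytic subunit of the phagocyte NADPH oxidase, gave 0.34, 0.46, -0.096 and 0.57, and CD163, the haemoglobin scavenger receptor, gave 0.45, 0.036, -0.15 and 0.62. Both were below 0 on array 3 only. FCGR1A, a high-affinity antibody receptor, was below 0 on both arrays of slide 3 (-0.59 and -0.42) and far above it on both of slide 4 (1.69 and 1.38).

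The monocyte list median was 0.28, 0.077, 0.17 and 0.75 on arrays 1 to 4, 0.32 in the fit without array 4 and 0.084 (5 of 6 positive) in the fit without slide 7. The summed signal of the 6 genes ran from 14.25 to 15.38 on the log2 scale in the week 6 samples and from 13.96 to 15.06 in the week 3 samples, so the ranges overlapped, and no member was below background. C5AR1 and CASP4, which rose, are also expressed by monocytes, and the part of monocyte RNA in their rise was not tested.

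Cytotoxic T and NK cell genes had mixed values. Of 8 tested, 5 were negative, against 47.9% of the named genes, and the median was -0.28. None passed, and 4 had an unadjusted p under 0.05 with a negative value, against 7.64% of the named genes. CD8A, the coreceptor of cytotoxic T cells, gave -0.017, -0.83, -0.29 and -0.84 (fitted -0.58 ± 0.16, limma adjusted p = 0.0958). CCL5, a chemokine stored by these cells, gave 0.0051, -1.06, -0.088 and -0.99 (fitted -0.58 ± 0.17, limma adjusted p = 0.118). KLRD1, an NK cell receptor chain, gave -0.40, -0.99, -0.0088 and -0.71, and PRF1, the pore-forming perforin, gave -0.14, -0.45, -0.22 and -0.58. In all these genes arrays 2 and 4 were lowest. CCL4, the called fall, was also lowest on arrays 2 and 4. IFNG (0.020) and NCR1 (0.060) were close to 0, CX3CR1 lay above it at 0.13 ± 0.14 and FASLG below it at -0.13 ± 0.12. Without slide 7, which holds the diet arrays of week 6, the list median turned to 0.089 and PRF1 to 0.17, so the direction of this list turned when that slide was left out.

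Of 6 granulocyte genes tested, 3 had positive and 3 negative fitted values, and none passed. The 3 negative genes were MMP9 (-0.90 ± 0.90), CAMP (-0.12 ± 0.27) and ELANE (-0.027 ± 0.058). S100A8 and CXCR2 alone among the 6 genes were negative on both arrays of slide 3 and positive on both of slide 4. S100A8, the calcium-binding protein abundant in neutrophils, gave -1.56 and -0.31 on slide 3 and 2.28 and 2.19 on slide 4, with a fitted value of 0.83 ± 0.67 (limma adjusted p = 0.561). CXCR2, the neutrophil receptor for interleukin 8, gave -0.55 and -0.26 on slide 3 and 1.30 and 0.63 on slide 4. CXCL8, the interleukin 8 gene, gave -1.94 on array 1 and 1.02, 1.69 and 1.74 on the other arrays. The summed signal of the 6 granulocyte genes ran from 14.6 to 16.8 on the log2 scale in week 6 samples and from 13.6 to 15.7 in week 3 samples. LTF, the granule protein lactoferrin, was above 0 on all 4 arrays by its brightest probe (0.12 to 0.98, fitted 0.53 ± 0.22, limma adjusted p = 0.238). That probe lay at -0.25 without slide 7. The LTF probes disagreed, since another lay at 0.48 and a further probe at 0.046, below 0 on meat arrays 1, 2 and 3. C5AR1 is a granulocyte gene too, and the mean of its array values was 0.40 on slide 3 and 0.75 on slide 4. The part of granulocyte RNA in its rise was not tested.

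No member of the remaining marker lists passed. Of 3 erythroid genes tested all were negative (median -0.18), with EPOR at -0.29 ± 0.10 (limma adjusted p = 0.180). Of 4 dendritic cell genes 3 were positive, with CD1A6 at 0.49 ± 0.22 (limma adjusted p = 0.264). CD4, which dog neutrophils also carry on their surface, gave -0.66 and 0.045 on slide 3 and 1.53 and 0.93 on slide 4, and was higher on slide 4 as S100A8 was. The B cell gene MS4A1 lay at -0.0078 ± 0.33. Of 5 basophil, mast cell and eosinophil genes 3 were positive, with a median of 0.020.

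Of 29 lists, those of cell markers included, 24 had at least 5 tested members, and 1 called member each was found in the inflammatory NF-kB targets (CCL4) and the prostaglandin genes (PTGER4). No member of the other 22 passed.

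**Figure D4:**
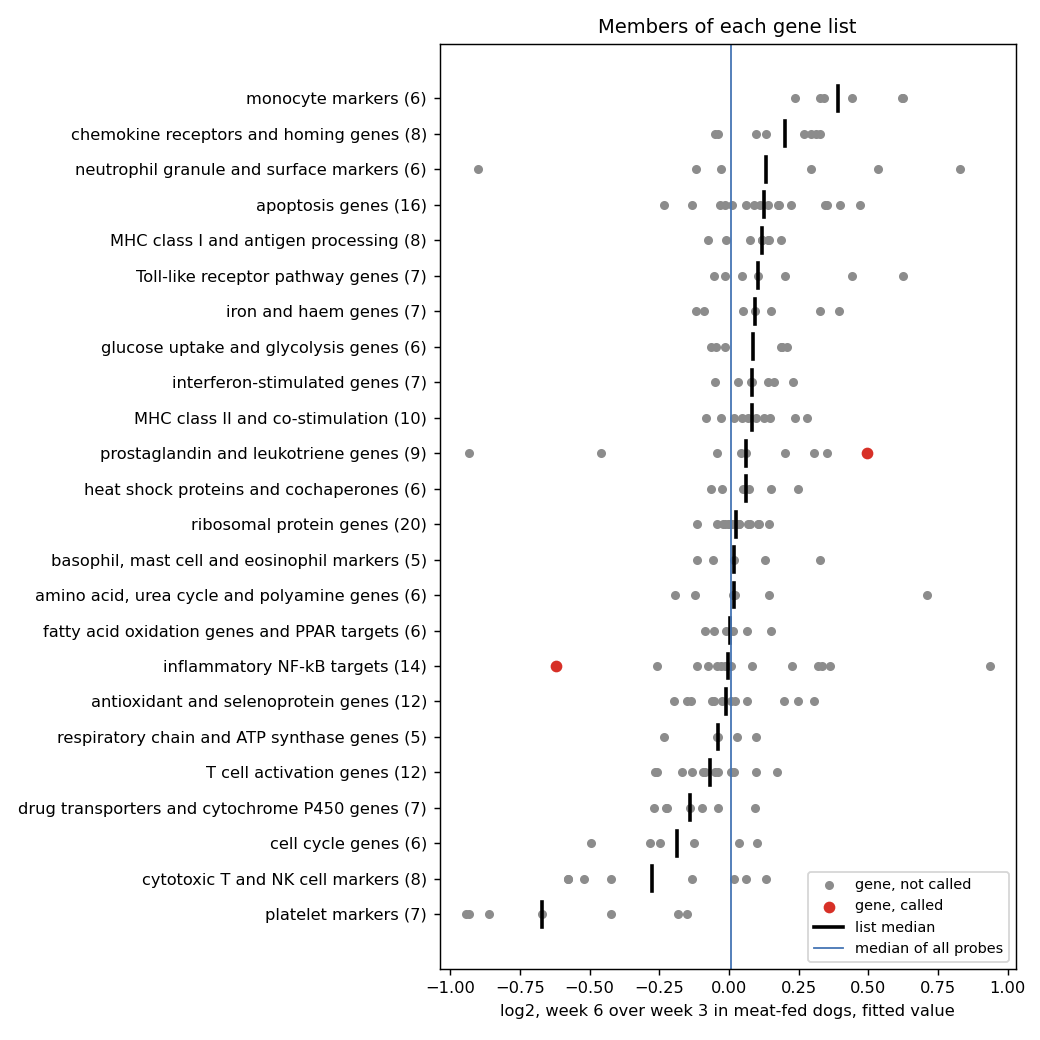
Fitted log2 value, week 6 over week 3 in meat-fed dogs (x axis), of every tested member of the 24 gene lists with at least 5 tested members (y axis, number tested in parentheses). Bars are list medians, red points are called genes and the blue line is the median of all probes. The list medians run from -0.67 for platelet genes to 0.39 for monocyte genes.

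None of 16 apoptosis genes passed. The list had 12 positive values, a median of 0.13 and 6 genes with an unadjusted p under 0.05 in that direction against 1 in the other. Among all named genes 52.1% were positive, and 10.6% and 7.64% had such a p with a positive and a negative value. MCL1, a BCL2-family protein that keeps myeloid and lymphoid cells alive, gave 0.016, 0.74, 0.52 and 0.46 (fitted 0.47 ± 0.11, limma adjusted p = 0.0643). CASP12, an inflammatory caspase related to CASP4, gave 0.43, 0.13, 0.11 and 0.61 (fitted 0.40 ± 0.091, limma adjusted p = 0.0529). BIRC3, an inhibitor of apoptosis and an NF-kB target, gave 0.18, 0.47, 0.57 and 0.29 (fitted 0.35 ± 0.10, limma adjusted p = 0.0995), while its second probe had a fitted value of 0.093. All 4 arrays were above 0 for these genes. CASP8, the initiator caspase of death receptors, was 0.22 ± 0.065 (limma adjusted p = 0.110). CYCS, the cytochrome c gene, was negative on every array, at -0.23 ± 0.090 (limma adjusted p = 0.219), but turned to 0.084 under median centring.

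Inflammatory genes had no common direction. Of 14 NF-kB targets tested, 7 were positive and 7 negative, and the median was -0.0032. Beside the fall of CCL4, the interleukin 1 receptor antagonist IL1RN was 0.36 ± 0.13 (limma adjusted p = 0.173), NFKB1, a subunit of NF-kB itself, was 0.23 ± 0.073 (limma adjusted p = 0.142) and TNF was 0.0084 ± 0.048 (limma adjusted p = 0.949). The second NFKB1 probe lay at -0.023. Among 9 prostaglandin and leukotriene genes PTGER4 rose, and PTGS1 is the member already given with the platelet genes. PLA2G15, a lysosomal phospholipase, was 0.31 ± 0.11 (limma adjusted p = 0.176). Of 7 interferon-stimulated genes 6 were positive, with a median of 0.084, and OAS2 lay at 0.23 ± 0.31.

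Of the lists of fat, amino acid, antioxidant and iron genes, which are known to respond to diet, no member passed. TXNRD3, the selenium-containing reductase that rose, was not on the antioxidant list. Fatty acid oxidation genes and PPAR targets had a median of 0.0027 over 6 genes, with CPT1A, the gate of mitochondrial fat oxidation, at -0.086 ± 0.12 and PPARG at 0.15 ± 0.11. ARG2, the mitochondrial arginase that splits arginine to urea, gave 0.17, 0.31, 0.90 and 1.06 (fitted 0.71 ± 0.19, limma adjusted p = 0.0907). It was above 0 on all arrays and higher on slide 4, but lay at -0.0024 without slide 7. The arginine transporter SLC7A1 was -0.19 ± 0.071 (limma adjusted p = 0.189). Of 12 antioxidant and selenoprotein genes 6 were positive, and TXNRD1, the cytosolic relative of TXNRD3, gave 0.072, 0.25, 0.30 and 0.17 (fitted 0.25 ± 0.065, limma adjusted p = 0.0835). The TXNRD1 probes disagreed, since the others had fitted values of 0.22, 0.076 and -0.084. SLC11A1, the phagosomal iron transporter, was -0.31 on array 1 and between 0.46 and 0.57 on the others.

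The change on kibble over the same weeks was set beside the change on meat, with the caution that both come from 1 fit and share the diet arrays and the dye term. In kibble-fed dogs 1 of 29087 probes passed (0.00344%, limma), an unnamed transcript (ENSCAFT00000043435, -0.36 ± 0.044, chosen after its value was seen), and 5257 had an unadjusted p under 0.05 (18.1%). The difference between the 2 changes passed at 0 probes (0%, limma), with 2364 at an unadjusted p under 0.05 (8.13%). The difference passed at 2346 probes with median centring, 14 without slide 6, which holds the diet arrays of week 3, and 7 without slide 7, which holds those of week 6. Without slide 6 the kibble count was 193 and the meat count 3, so which diet had more called probes depends on that slide. PTGER4 lay at 0.55 ± 0.10 on kibble and 0.50 ± 0.10 on meat. CCL4 was -0.45 ± 0.11 on kibble and -0.62 ± 0.11 on meat. CD8A was -0.81 ± 0.16 on kibble and -0.58 ± 0.16 on meat, and MAT2A was 0.23 ± 0.062 on kibble and 0.29 ± 0.062 on meat. For these genes the values on the 2 diets lay close together.

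**Figure D5:**
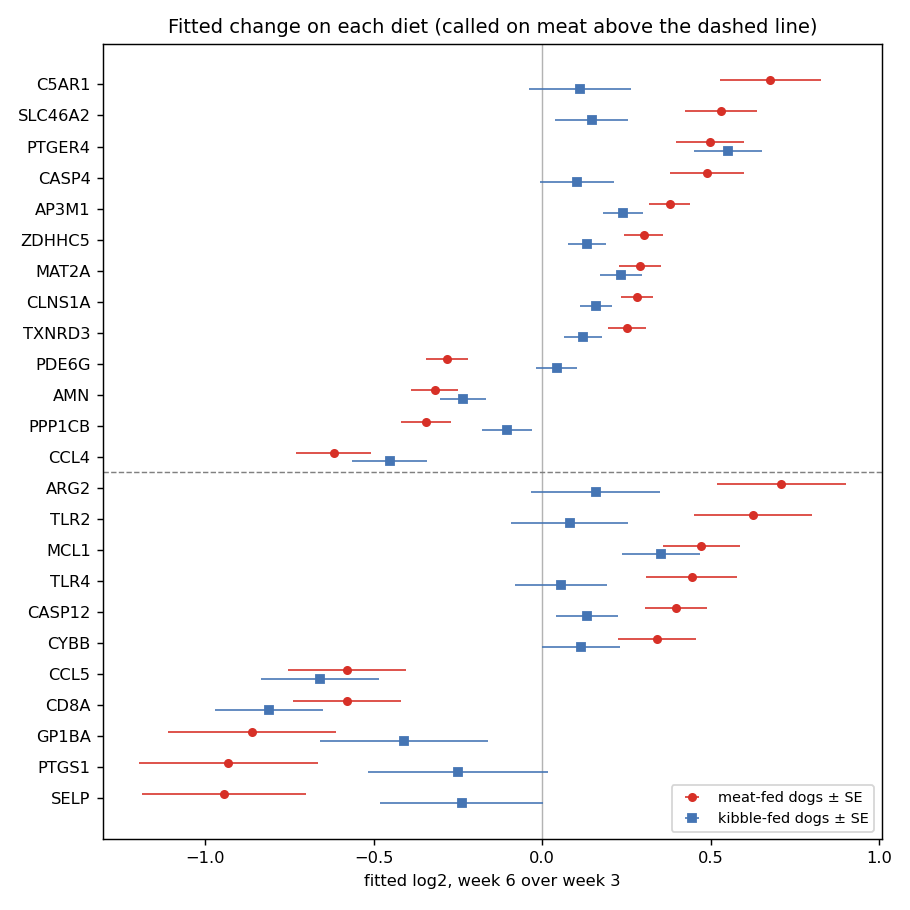
Fitted log2 value, week 6 over week 3 (x axis), in meat-fed dogs (red circles) and kibble-fed dogs (blue squares), each ± SE, for the 13 genes called on meat (above the dashed line) and 11 further named genes (below it). Both values of a gene share the diet arrays and the dye term. PTGER4 lies at 0.50 on meat and 0.55 on kibble, while C5AR1 lies at 0.68 and 0.11.

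Other genes lay nearer 0 on kibble. C5AR1 was 0.11 ± 0.15 on kibble, and the difference of 0.56 ± 0.19 had an unadjusted p of 0.0108 and a limma adjusted p of 0.595. TLR2 was 0.081 ± 0.17 on kibble (difference 0.54 ± 0.22, limma adjusted p = 0.595), CASP4 was 0.10 ± 0.11 (difference 0.38 ± 0.14, limma adjusted p = 0.595) and SELP was -0.24 ± 0.24 (difference -0.71 ± 0.31, limma adjusted p = 0.595). The smallest unadjusted p of the difference among named genes that were higher on meat belonged to RPS10, PDE6D and RPL7A. RPS10, a protein of the small ribosomal subunit, was 0.037 ± 0.045 on meat and -0.19 ± 0.045 on kibble, a difference of 0.23 ± 0.058 (limma unadjusted p = 0.00155). PDE6D, a carrier of lipid-modified proteins, differed by 0.19 ± 0.050 (limma unadjusted p = 0.00193) and RPL7A, of the large subunit, by 0.22 ± 0.059 (limma unadjusted p = 0.00219). In the other direction they belonged to PDE6G (-0.33 ± 0.078, limma unadjusted p = 0.000931), the lens crystallin CRYGD (-0.29 ± 0.079, limma unadjusted p = 0.00264) and the drug-metabolising enzyme CYP2D15 (-0.39 ± 0.11, limma unadjusted p = 0.00268). All 6 had a limma adjusted p of 0.595.

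Ribosomal protein genes as a list had a median of 0.025 on meat and -0.16 on kibble over the same 20 members. On meat 15 of 20 were positive, against 52.1% of the named genes. On the 4 meat arrays the list median was 0.16, 0.037, 0.0014 and 0.078, and on the 4 kibble arrays it ran from -0.26 to -0.097, so the arrays of the 2 diets did not overlap. The dye term was large for several of these genes, at 0.38 for RPS10 and 0.31 for RPL7A (Cy5 over Cy3), and the 2 sets of arrays have opposite dye orders. Without the dye term RPS10 lay at -0.14 on meat and -0.013 on kibble, a difference of -0.12 ± 0.18, and RPL7A lay at -0.038 on meat and 0.029 on kibble, a difference of -0.067 ± 0.15. The list median then lay at -0.082 on meat and -0.064 on kibble, so without that term the list medians of the 2 diets lay close together.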

How the data were processed

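Per the labels, total RNA of mononuclear cells was amplified from 200 ng and labelled with Cy3 or Cy5. Per the file headers, Agilent Feature Extraction 10.10.1.1 read the arrays, and the deposited files hold median intensity per spot and channel. A table of normalised log2 ratios was deposited by the authors, with limma named in the submitters' processing notes. It correlated with the ratios computed here at 0.881 to 0.985 per array, as log2 of Cy5 over Cy3.

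Of 45220 spots 43803 were not controls (43603 probes, 2175 with a symbol through RefSeq accessions). Over the 15 arrays 230 faulty spots were left out. Background was corrected by normexp (offset 50) on the median signal, since the files hold no mean signal, and ratios were loess-normalised. A probe was kept where at least 7 of 30 channels lay well above background. limma 3.58.1 in R 4.3.3 fitted group terms and a dye term (11 residual degrees of freedom, two-sided). Missing spots were dropped. The brightest probe represents a gene.

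Named are the 12 largest called genes per direction (where under 5 were called, also the 5 smallest p). For the difference, 3 per direction are named. Both choices required a gene well above background in at least 4 week 3 and 4 week 6 meat samples. Each list's called members and its 3 smallest p are also named, without that requirement. Further members are given to describe a list. The comparison and the lists were chosen with earlier results of these data known. Alternatives changed background, normalisation, filter, dye term, blocks, arrays and probe summaries. The fit was checked on simulated data.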

Additional observations from a re-analysis of the deposited data

Results flagged for a closer look

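Of 56 named genes examined, 4 had a meat array that stood apart from the other 3 by a gap, as a share of the whole range, above Dixon's 95% critical value, which chance exceeds in about 1 of 20 groups of values. AP3M1 was 0.42 on array 1 and 0.31 to 0.32 on the others. PDE6G was -0.13 on array 3 and -0.30 to -0.29 on the others. GPX2, a glutathione peroxidase, was -0.51 on array 1 and -0.053 to -0.0013 on the others. SLC11A1 was -0.31 on array 1 and 0.46 to 0.57 on the others.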

How the results depend on the processing

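The count of 326 called probes (limma) on meat was 45 with the Feature Extraction processed signals, 200 with the authors' deposited ratios, 9428 with median centring, 38 with a dye term per slide, 712 with all 30 arrays, 195 with trend and robust moderation and 1862 with array weights. It was 0 with the 4 meat arrays alone, without them, or with the time arrays of 1 slide. It ran from 4 to 282 without single arrays. The other alternatives planned gave 227 to 393, apart from the replicate block as a random effect, which gave 166. Chosen after seeing the data, a dye term per scan session gave 156, leaving out slide 6 gave 3, leaving out slide 7 gave 0 (3083 at an unadjusted p under 0.05), and a fixed replicate block on the week change gave 1297. Of the 13 named calls, 0 stayed with the Feature Extraction signals, without slide 6 or 7, with the meat arrays alone, without them or with the time arrays of 1 slide, and 1 (ZDHHC5) with a dye term per slide. The random replicate block and the session dye term kept 5, trend and robust moderation and no background correction 6, the deposited ratios 7, and the other alternatives that kept all arrays 8 to 13. The deviations of same-numbered meat and kibble arrays from their group means correlated at r = 0.276, 0.802, 0.0332 and 0.557. Because the third pair lay near 0, and not every array correlated best with its own number, the numbers were not taken as pairs. The main fit therefore holds no term for an effect shared by same-numbered arrays, though some of these correlations were high.

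The kibble count of 1 was 315 with arrays scaled to 1 spread, 3 without a filter, 32 with all 30 arrays, 2 with array weights, 193 without slide 6, 3 without slide 7, 2197 with the fixed replicate block (more than on meat) and from 0 to 115 without single arrays. It was 0 with median centring, no dye term, a dye term per slide or session, without the meat arrays, with the time arrays of 1 slide, with trend and robust moderation, and with either summary of a gene's probes (2475 to 5160 at an unadjusted p under 0.05, limma). The difference between the diets was 0 in the other fits and 2346 with median centring, 14 without slide 6 and 7 without slide 7.

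Over all alternatives 18 values of named genes turned their sign (the change on meat, and for RPS10 the difference between the diets), and the cause was not tested. Without slide 7 these were ARG2 (-0.0024), CD86 (-0.019), GAPDH (-0.035), LTF (-0.25) and PRF1 (0.17). With median centring they were CCND1 (0.028), CYCS (0.084), MADCAM1 (0.014), NOS3 (0.18), PDE6G (0.019) and SLC7A1 (0.11). Without the meat arrays they were CYCS (0.10), MPHOSPH8 (-0.050), RPL7A (-0.059) and SLC2A1 (-0.036). RPL7A (-0.038) and RPS10 (-0.12) turned without a dye term, and RPL7A (-0.17) with the meat arrays alone. The medians of the platelet, monocyte, apoptosis, chemokine receptor, Toll-like receptor and drug transporter lists kept their sign in all settings. The signal over background limits the dim probes.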
